A study of Mus musculus with 16 samples.

Results

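Actb and 9 other genes of the actin cytoskeleton were followed in the atria of mice after myocardial infarction. The genes were Actb, Actg1, Cfl1, Pfn1, Tmsb10, Coro1a, Capg, Arpc1b, Lcp1 and Myo1f. A gene was measured from a row of the expression table whose annotation gives its symbol and no other, taking the row with the highest mean where there were several. By this rule 8 of the 10 had a row, out of 30141 genes of the table that had one. Actg1 shares both of its rows with Gm12715 and Mir6935, and Arpc1b shares its row with Gm5637, so neither is given a value. A second row of Tmsb10, shared with Gm9844, was not used. The genes were chosen with their behaviour on these arrays known, so their levels, differences and calls are a description here and not a test.

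All mice were 10-week-old C57BL/6 males, and total RNA came from atrial tissue, with 1 array per sample and 4 samples in each of 4 groups. The infarction groups had the left anterior descending coronary artery tied off and were killed 1 day, 3 days or 7 days later (arrays 11 to 14, 31 to 34 and 71 to 74), and the sham group had sham surgery (arrays 1 to 4). The labels do not state how long after surgery the sham atria were taken or whether an array holds 1 animal or several, so p-values here measure only the spread between these arrays, which may be partly technical. The tied artery supplies mainly the left ventricle, and the RNA is from the atria.

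Actin is held as a pool of single molecules and as filaments, and cells move, engulf and change shape by shifting actin between the forms. Profilin and thymosins hold the single molecules, the Arp2/3 complex and formins start new filaments, cofilin and coronin take old ones apart, capping proteins close filament ends, and plastins tie filaments into bundles. Every cell uses beta-actin, cofilin and profilin, while L-plastin (Lcp1), coronin 1A and myosin IF are known mainly from white blood cells. In heart muscle cells most actin is of the muscle isoforms, built into sarcomeres.

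The DNA around the starts of 4 of these genes is shown to set a gene that every cell uses (Cfl1) beside the 3 known mainly from white blood cells (Lcp1, Coro1a and Myo1f). Of the 8 measured genes 7 matched the table of starts. Each sequence runs from 250 bases before to 50 bases after a transcript start in RefSeq on GRCm38.p6, 5′ to 3′ along the gene, with every CG in capitals. For Lcp1 and Coro1a the first of 2 listed starts is shown.
Cfl1, chr19:5490205-5490504, plus strand: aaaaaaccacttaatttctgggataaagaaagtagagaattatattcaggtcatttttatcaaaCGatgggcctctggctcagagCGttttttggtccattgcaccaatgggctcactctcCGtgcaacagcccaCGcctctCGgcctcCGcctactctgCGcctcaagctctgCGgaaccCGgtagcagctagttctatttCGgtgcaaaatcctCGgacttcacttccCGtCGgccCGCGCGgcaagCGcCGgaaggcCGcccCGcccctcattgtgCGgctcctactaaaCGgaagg
Lcp1, chr14:75130873-75131172, plus strand: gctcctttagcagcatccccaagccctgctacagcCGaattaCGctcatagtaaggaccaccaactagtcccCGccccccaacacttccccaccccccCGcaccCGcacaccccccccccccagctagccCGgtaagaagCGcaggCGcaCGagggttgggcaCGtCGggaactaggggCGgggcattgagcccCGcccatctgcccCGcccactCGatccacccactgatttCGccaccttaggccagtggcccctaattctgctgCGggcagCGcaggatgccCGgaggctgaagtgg
Coro1a, chr7:126704767-126705066, minus strand: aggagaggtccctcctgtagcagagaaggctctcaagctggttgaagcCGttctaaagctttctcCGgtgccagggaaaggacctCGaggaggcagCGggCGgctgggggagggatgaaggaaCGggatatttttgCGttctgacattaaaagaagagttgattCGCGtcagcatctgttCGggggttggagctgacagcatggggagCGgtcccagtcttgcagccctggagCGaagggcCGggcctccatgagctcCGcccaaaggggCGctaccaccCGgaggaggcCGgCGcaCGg
Myo1f, chr17:33555457-33555756, plus strand: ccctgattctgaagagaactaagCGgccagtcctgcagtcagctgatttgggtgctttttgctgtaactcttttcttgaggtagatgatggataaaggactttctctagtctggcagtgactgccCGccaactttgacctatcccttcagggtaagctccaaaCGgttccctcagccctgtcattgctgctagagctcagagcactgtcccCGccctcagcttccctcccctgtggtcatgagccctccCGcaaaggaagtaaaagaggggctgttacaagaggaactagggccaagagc
Cfl1 holds 22 CG pairs in this window, Lcp1 and Coro1a hold 19 each, and Myo1f holds 5. The windows of the second listed starts, not shown, hold 4 for Lcp1 and 10 for Coro1a. The median over all 32851 listed windows is 7, with quartiles of 3 and 20. The CArG box, the element bound by serum response factor at many actin genes, was in none of the 11 windows of 7 measured genes and in 1.63% of all windows. Its pattern reads the same on both strands. A CArG box stood in the window of Actg1, beginning at position -90 with the start counted as 0. GAGGAA, the core of sites read by PU.1 in blood cells, was searched on both strands. It was in the Myo1f window, beginning at position 30, and in no window of the other 6 measured genes, against 28.3% of all windows. GAGGAA also stood in the window of Arpc1b, which has no value here, beginning at position 2. TATAAA, searched on both strands, was in none of the 11 windows and in 13.6% of all. A CArG box can contain TATAAA, so those searches can overlap. Actb was not matched.

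The arrays were not equal in quality, and arrays 31 (day 3) and 13 (day 1) stood apart. Control separation, the area under the curve that tells positive from negative control rows, was 0.743 for array 31 and 0.755 for array 13, against 0.793 to 0.825 for the other 14. Against the rest of its own group, array 31 had a median r of 0.955 and array 13 one of 0.987. No pair of arrays held identical values. Negative control rows had medians of 4.69 to 4.87 on day 1 and 4.47 to 4.53 in sham. On average these medians differed from sham by 0.26 on day 1, 0.17 on day 3 and 0.03 on day 7. The differences as deposited are not corrected for this. Signals end at a ceiling, and none of the 8 genes had a value above 19 or a value repeated as a plateau. The label of atrial tissue was checked with Sln and Myl7, markers of atrial muscle, which averaged 17.97 ± 0.19 and 17.97 ± 0.28 in sham (SD, n = 4). Sln fell by 5.09 ± 1.29 on day 1 and 3.51 ± 1.29 on day 3, with limma adjusted p of 0.00599 and 0.0398, and Myl7 by 3.10 ± 1.20 and 3.49 ± 1.20, with 0.0462 and 0.0284 (SE, n = 4 per group). Neither was called on day 7. The SD of Myl7 was 2.03 on day 1 and 2.86 on day 3 (n = 4), so its fall was uneven between arrays. Nppa and Tnnt2 lay on the ceiling plateau, so no difference can be read from them.

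Against sham, 7 of the 8 genes were called higher on day 1, 8 on day 3 and 8 on day 7, and none was called lower on any day. A call is an adjusted p under 0.05 over 18419 tested genes. Of all tested genes 24.9% were called higher on day 1, 23.5% on day 3 and 14.9% on day 7. In numbers these were 4593, 4331 and 2741, and without array 31 they were 6552, 4934 and 3595. The rule chose the genes on these same comparisons, so their counts are a description. The median log2 difference over the 8 genes was 1.15 on day 1, 1.68 on day 3 and 1.11 on day 7, against 0.06, 0.08 and -0.01 over all tested genes. The 3 comparisons share the same sham arrays. After quantile normalisation between arrays the calls were 6, 8 and 4, because Cfl1 on day 1 and Cfl1, Tmsb10, Coro1a and Capg on day 7 were no longer called. Among all 18419 tested genes 2642, 2589 and 1818 were then called higher on days 1, 3 and 7.

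Actb, which encodes beta-actin, had signals of 14.80, 14.38, 14.20 and 14.27 in sham, 16.45, 16.14, 16.60 and 16.39 on day 1, 16.48, 16.40, 16.42 and 16.29 on day 3, and 15.94, 15.85, 15.13 and 16.07 on day 7, all on the log2 scale. Every array of every infarction day lay above every sham array, and all day 7 arrays lay below all day 1 and day 3 arrays. The log2 difference from sham was 1.98 ± 0.19 on day 1, 1.99 ± 0.19 on day 3 and 1.34 ± 0.19 on day 7 (SE of the fit, n = 4 per group). In order of mean level the groups ran sham, day 7, day 1 and day 3, and the last 2 did not differ beyond their spread, at 16.39 ± 0.19 and 16.40 ± 0.08 (SD, n = 4). The size depends on scaling, since after quantile normalisation the differences were 1.23, 1.12 and 1.11.

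Profilin and thymosin handle the pool of single actin molecules. Pfn1, which encodes profilin 1 and feeds actin to growing filaments, had 7.33, 7.15, 7.10 and 6.59 in sham, 8.08, 8.10, 8.08 and 8.08 on day 1, 8.04, 8.53, 8.45 and 8.62 on day 3, and 8.26, 8.03, 7.17 and 8.35 on day 7. The day 1 arrays lay within an SD of 0.011, and 1 day 7 array (73) fell inside the sham range. The log2 differences from sham were 1.04 ± 0.23, 1.37 ± 0.23 and 0.91 ± 0.23 on days 1, 3 and 7 (SE, n = 4 per group). Neighbouring infarction days overlapped.

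Tmsb10, a thymosin that binds single actin molecules, had 6.51, 6.20, 6.29 and 6.42 in sham, 6.32, 6.41, 6.50 and 6.50 on day 1, 7.01, 7.04, 6.89 and 6.81 on day 3, and 6.71, 6.62, 6.63 and 6.83 on day 7. Day 1 overlapped sham, and days 3 and 7 lay above both. It was the 1 gene of the 8 not called on day 1, with log2 differences from sham of 0.08 ± 0.08, 0.58 ± 0.08 and 0.34 ± 0.08 on days 1, 3 and 7 (SE, n = 4 per group). The day 1 value was -0.12 after quantile normalisation, so its sign is not settled.

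Filaments are taken apart and closed off by the next 3 genes. Cfl1, which encodes cofilin 1, the severing factor of most cells outside muscle, had 14.82, 14.27, 13.95 and 13.67 in sham, 15.76, 15.70, 15.78 and 15.83 on day 1, 15.69, 16.40, 16.61 and 16.22 on day 3, and 15.82, 15.71, 15.29 and 15.67 on day 7. All infarction arrays lay above all sham arrays, and the 3 infarction days overlapped each other. The log2 differences from sham were 1.59 ± 0.23, 2.06 ± 0.23 and 1.45 ± 0.23 (SE, n = 4 per group). After quantile normalisation they were 0.88, 1.29 and 1.25. The lowest day 3 array was array 31.

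Coro1a, the coronin of white blood cells, which steers Arp2/3 and cofilin at filaments, had 5.41, 5.30, 5.21 and 5.24 in sham, 5.97, 6.13, 6.37 and 6.01 on day 1, 6.23, 5.95, 6.07 and 5.96 on day 3, and 5.62, 5.53, 5.47 and 5.71 on day 7. Days 1 and 3 overlapped, day 7 lay below both, and sham lay below day 7. The log2 differences from sham were 0.83 ± 0.09, 0.76 ± 0.09 and 0.29 ± 0.09 (SE, n = 4 per group). Its sham mean was only 0.80 above the median of the negative controls, so the lower end of its range is close to background. The day 7 call was lost when any of 6 arrays was left out, with differences of 0.25 to 0.31: sham 2, 3 or 4, or day 7 array 71, 72 or 74. It was also lost with no filter on low values.

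Capg, which encodes a gelsolin relative that caps filament ends without cutting, had 6.12, 5.78, 5.71 and 5.78 in sham, 6.62, 6.49, 6.86 and 6.60 on day 1, 6.92, 6.63, 6.75 and 6.75 on day 3, and 6.27, 6.28, 6.05 and 6.35 on day 7. Days 1 and 3 overlapped and lay above day 7, and day 7 array 73 fell below the highest sham array. The log2 differences from sham were 0.80 ± 0.11, 0.91 ± 0.11 and 0.39 ± 0.11 (SE, n = 4 per group). The day 7 call was lost without sham 3, at 0.34, and without array 74, at 0.35.

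Lcp1, the bundling protein L-plastin of white blood cells, had the widest range of the 8. It had 7.31, 7.30, 7.08 and 6.85 in sham, 9.98, 10.28, 11.05 and 10.39 on day 1, 11.02, 10.58, 10.81 and 10.55 on day 3, and 9.32, 9.71, 8.80 and 9.99 on day 7. All infarction arrays lay above all sham arrays, and the highest day 7 array just reached the lowest day 1 array. The log2 differences from sham were 3.29 ± 0.26, 3.60 ± 0.26 and 2.32 ± 0.26 (SE, n = 4 per group).

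Myo1f, a single-headed myosin that links membrane to actin in white blood cells, had 5.27, 5.35, 5.39 and 5.13 in sham, 6.40, 6.57, 6.75 and 6.45 on day 1, 7.49, 7.25, 7.34 and 7.16 on day 3, and 6.38, 6.84, 6.07 and 7.09 on day 7. Day 3 lay above every other group, and days 1 and 7 overlapped. The log2 differences from sham were 1.26 ± 0.17, 2.02 ± 0.17 and 1.30 ± 0.17 (SE, n = 4 per group). Its sham mean, like that of Coro1a, was 0.80 above the negative controls.

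**Figure D1:**
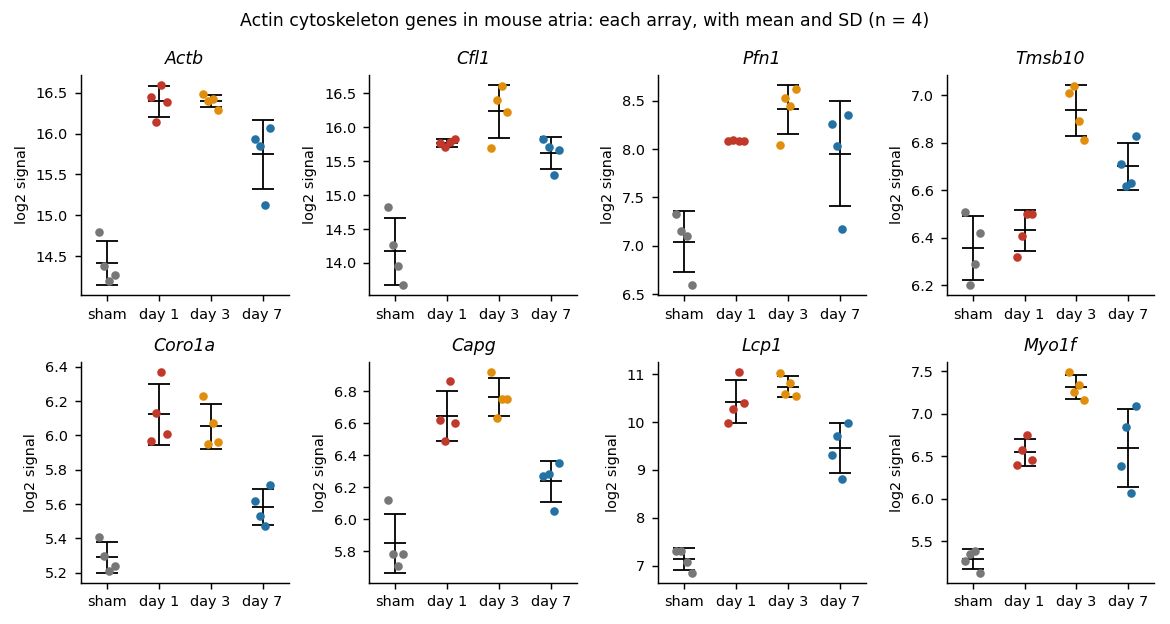
Deposited log2 signal (vertical axis, a separate scale per gene) of 8 actin cytoskeleton genes on each array in sham, day 1, day 3 and day 7, with the mean and SD (n = 4). Lcp1 spans 6.85 to 11.05, and Tmsb10 on day 1, at 6.32 to 6.50, overlaps sham, at 6.20 to 6.51.

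**Figure D2:**
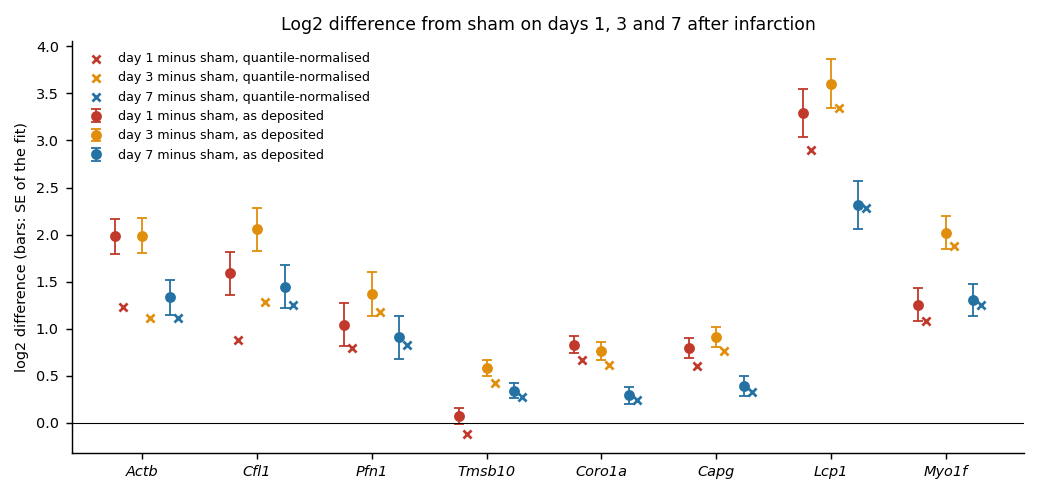
Log2 difference from sham (vertical axis) on days 1, 3 and 7 for each gene, as deposited (circles, bars are the SE of the fit) and after quantile normalisation (crosses). The crosses lie below the circles, most for Actb on day 3, at 1.12 and 1.99.

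Calls between infarction days are a description too, since the genes were chosen with their behaviour on these arrays known. On day 3, 2 genes were called higher than on day 1, against 5.95% of all tested genes. They were Myo1f, with a log2 difference of 0.77 ± 0.17, and Tmsb10, at 0.51 ± 0.08 (SE, n = 4 per group). Without day 1 array 11 the Myo1f difference was 0.72 and was not called, and without array 31 Cfl1 was called in addition at 0.64, against 0.46 with all arrays. The share of all tested genes also depends on array 31. Without it 3457 were called higher and 3086 lower, against 1096 and 398 with all arrays.

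On day 7 against day 3, 5 genes were called lower, against 8.57% of all tested genes. The log2 differences were -1.29 ± 0.26 for Lcp1, -0.72 ± 0.17 for Myo1f, -0.65 ± 0.19 for Actb, -0.52 ± 0.11 for Capg and -0.47 ± 0.09 for Coro1a (SE, n = 4 per group). Cfl1 at -0.61, Pfn1 at -0.46 and Tmsb10 at -0.24 were not called. The Actb call was lost when array 31, 32, 33, 34, 72 or 73 was left out, with differences from -0.69 to -0.45, and the Myo1f call without array 71, at -0.65. The Actb call was also lost after quantile normalisation, with no filter and with only the 2 groups compared, and the last of these lost Myo1f too. Without array 31 Cfl1 was called lower, at -0.79, and so were 2231 of all tested genes, against 1579 with all arrays. With each array centred on its median 2 of the 5 calls remained, Coro1a and Lcp1.

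On day 7 against day 1, 4 genes were called lower, against 12.7% of all tested genes, and 1 was called higher, against 13.7%. Without array 31, 5288 of all tested genes were called lower and 3956 higher, against 2340 and 2515 with all arrays. Lcp1 fell by 0.97 ± 0.26, Actb by 0.65 ± 0.19, Coro1a by 0.54 ± 0.09 and Capg by 0.41 ± 0.11 on the log2 scale, and Tmsb10 was higher by 0.27 ± 0.08 (SE, n = 4 per group). The negative control median also differed, by -0.23. Above that median Coro1a averaged 1.38 on day 1 and 1.07 on day 7, Capg 1.90 and 1.72, and Tmsb10 1.69 and 2.19. These were not tested. The Actb call was lost without array 11, at -0.63, or array 13, at -0.58. The Tmsb10 call was lost without array 11, 71 or 74, at 0.22 to 0.27. After quantile normalisation Coro1a was the 1 gene of these 4 still called lower, and centring left Coro1a and Lcp1.

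Markers of white blood cells were also higher after infarction. The 7 general leukocyte markers were each called higher on days 1, 3 and 7. Their mean log2 signal relative to sham ranged from -0.17 to 0.16 in sham, 2.73 to 3.53 on day 1, 3.00 to 3.29 on day 3 and 1.85 to 3.03 on day 7. Neutrophil markers ranged from 5.94 to 7.73 on day 1 and from 0.25 to 0.49 on day 7, with 5 of 5 called higher on day 1 and 0 on day 7. Macrophage markers ranged from 1.39 to 1.56 on day 1 and from 2.57 to 3.99 on day 7, with 4 of 7 called higher on day 1 and 7 of 7 on days 3 and 7. Retnlg was the 1 neutrophil marker at or below the negative controls on every sham array, and the 5 lymphocyte markers (Cd3e, Cd3g, Cd79a, Cd79b and Ms4a1) were so in all 4 groups. In bulk tissue, more cells of a type and more RNA per cell cannot be told apart.

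Marker scores also varied between arrays of a group. Day 7 array 73 had the lowest leukocyte score of its group, 1.85, and the lowest value of 7 of the 8 genes. Array 74 had the highest score, 3.03, and the highest value of 7. The leukocyte score ordered the day 7 arrays 73, 71, 72 and 74 from low to high, and 3 of the 8 genes, Capg, Lcp1 and Myo1f, had that order. Day 1 array 13 had a leukocyte score of 3.53, against 2.73 to 2.81 on the other day 1 arrays, and the highest value of 6 genes. Day 3 array 31 had a neutrophil score of 6.89, against 1.95 to 2.09 on the other day 3 arrays, a macrophage score of 1.44, against 3.35 to 3.60, and the highest value of 5 genes. Both scores lay within the day 1 ranges, 5.94 to 7.73 and 1.39 to 1.56. Its fibroblast score, 1.16, lay between day 1, at 0.03 to 0.86, and the other day 3 arrays, at 3.65 to 3.87. Its cardiomyocyte score, -3.69, lay below the day 1 range of -2.81 to -1.07. Why array 31 differed from its group was not tested. Its leukocyte score, 3.03, was within the range of the other day 3 arrays, and array 33, with the highest score at 3.29, had the highest value of 1 gene. Sham array 1 had the highest value of 7 genes. The part of cell numbers in the differences was not tested.

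Other cell types moved too. Fibroblast markers ranged from 0.03 to 0.86 on day 1, 1.16 to 3.87 on day 3 and 4.66 to 5.53 on day 7, with 3 of 4 called higher on day 7. The 4 platelet markers ranged from 1.76 to 2.84 on day 1, 1.60 to 1.89 on day 3 and 0.06 to 0.46 on day 7. Itga2b was at or below the negative controls in every group, and Gp9 in sham and on day 3. The platelet score therefore rests mainly on Pf4 and Ppbp. Of the 5 cardiomyocyte markers, Nppa and Tnnt2 lie on the ceiling plateau and Myh6 averaged 19.64, near it, so the score rests mainly on Sln and Myl7. It ranged from -2.81 to -1.07 on day 1, -3.69 to -0.69 on day 3 and -1.08 to -0.25 on day 7. Their part in the differences was not tested either.

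**Figure D3:**
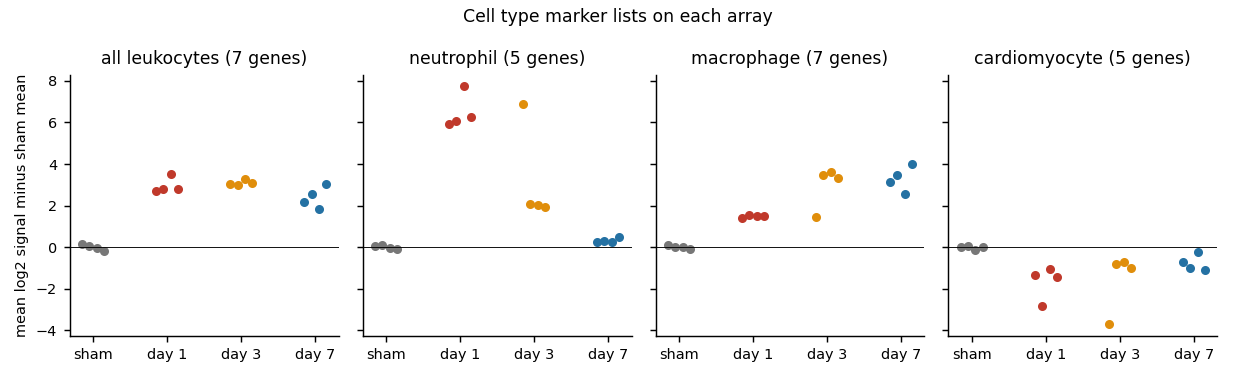
Mean log2 signal of each marker list minus its sham mean (vertical axis) on each array, in sham, day 1, day 3 and day 7, with 1 point per array. Neutrophil markers are near 0 again on day 7, at 0.25 to 0.49, while macrophage markers stand at 2.57 to 3.99, and array 31 is the high neutrophil point of day 3.

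Each gene was set beside its closest relatives, some known from other cell types or structures and some broadly used. Actc1, the cardiac muscle actin, has no row of its own and is given no value. Acta1, the skeletal muscle actin, had 14.82, 13.91, 13.75 and 13.79 in sham, 13.10, 13.57, 12.13 and 12.98 on day 1, 11.96, 12.08, 12.92 and 12.59 on day 3, and 14.44, 14.97, 14.36 and 13.59 on day 7. Days 1 and 3 lay below sham and day 7 overlapped it. Its log2 difference from sham was -1.12 ± 0.36 on day 1, -1.68 ± 0.36 on day 3 and 0.28 ± 0.36 on day 7 (SE, n = 4 per group), with limma adjusted p of 0.0205, 0.00167 and 0.669. The day 1 call was lost without sham 1, at an adjusted p of 0.0645, and without array 13, at 0.0729.

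Acta2, the smooth muscle actin that fibroblasts also make when activated, had 14.31, 14.47, 14.68 and 14.64 on day 7, all above the sham values of 14.17, 12.95, 12.62 and 13.13. Its day 7 difference was 1.31 ± 0.64 (SE, n = 4 per group) and was not called, at a limma adjusted p of 0.157. On day 3, array 31 was at 11.43 against 14.14 to 14.65 on the other 3 arrays, and without array 31 the day 7 difference was called at an adjusted p of 0.0278. With array weights that p was 0.000942, and with only the day 7 and sham arrays it was 0.00703.

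Relatives of the binding proteins follow, and their differences from the measured genes were not tested. Pfn2, a profilin of other tissues, fell on days 1, 3 and 7, by 0.28 ± 0.07, 0.37 ± 0.07 and 0.28 ± 0.07 on the log2 scale, with limma adjusted p of 0.00381, 0.000424 and 0.00659, and its day 7 call was lost with median centring, at 0.27. Gsn, gelsolin, which both cuts and caps, fell by 1.505 ± 0.27, 1.99 ± 0.27 and 1.03 ± 0.27 (SE, n = 4 per group), with adjusted p of 0.00057, 4.78e-05 and 0.0115, whereas its relative Capg was higher. The lowest day 1 value of Gsn, 10.11, was on array 13, and the lowest day 3 value, 9.43, on array 31. Its day 7 call was lost with median centring, at 0.0598.

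Cfl2, the muscle cofilin, differed from sham by 0.33 ± 0.12 on day 1, 0.12 ± 0.12 on day 3 and -0.01 ± 0.12 on day 7 (SE, n = 4 per group). Its day 1 call, at a limma adjusted p of 0.041, was lost in 13 of 25 alternatives and its sign turned after quantile normalisation, at -0.30. Tmsb4x, thymosin beta 4, rose by 0.45 ± 0.10, 0.63 ± 0.10 and 0.65 ± 0.10 on days 1, 3 and 7, with adjusted p of 0.00238, 0.000178 and 0.000341. All 3 of its calls were lost after quantile normalisation, when the day 1 value was -0.19.

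Coro1b and Coro1c are the coronins of most tissues, and both were called higher on days 3 and 7. Coro1b differed from sham by 0.14 ± 0.18 on day 1, which was not called, and rose by 1.01 ± 0.18 on day 3 and 0.97 ± 0.18 on day 7, with limma adjusted p of 0.53, 0.000424 and 0.00124. Coro1c rose by 0.81 ± 0.12, 1.09 ± 0.12 and 0.73 ± 0.12 on days 1, 3 and 7, with adjusted p of 0.000137, 1.02e-05 and 0.000572. Against day 3, day 7 was not called for either, at -0.04 for Coro1b and -0.35 for Coro1c, while Coro1a was called lower.

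Pls3, the plastin of cells other than white blood cells, had 10.88, 10.56, 10.32 and 10.47 in sham, 11.61, 11.44, 11.42 and 11.62 on day 1, 11.05, 11.55, 11.66 and 11.73 on day 3, and 12.00, 12.16, 12.23 and 12.18 on day 7. All day 7 arrays lay above all others. It rose by 0.96 ± 0.16, 0.94 ± 0.16 and 1.58 ± 0.16 (SE, n = 4 per group), with limma adjusted p of 0.00028, 0.000277 and 1.26e-05. After quantile normalisation the day 1 and day 3 calls were lost, at adjusted p of 0.294 and 0.125. On day 7 against day 3 Pls3 rose by 0.65, with an adjusted p of 0.0155, and Lcp1 was lower by 1.29.

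Myo1e, a broadly used relative of Myo1f, also had its highest mean on day 7. Its log2 differences from sham were 0.27 ± 0.17, 1.00 ± 0.17 and 1.40 ± 0.17 on days 1, 3 and 7 (SE, n = 4 per group), with limma adjusted p of 0.194, 0.000311 and 5.99e-05. With only the 2 groups compared, day 1 was called too, at 0.02. Arpc1a, the relative of Arpc1b, differed from sham by at most 0.06 ± 0.07 and was not called on any day. Actg2, the gut smooth muscle actin, had group means at most 0.59 above the negative controls and was not called, though array weights gave its day 7 difference of 0.15 an adjusted p of 0.0179.

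Of 156 further genes of the actin cytoskeleton that have a row, 146 were tested. On day 1, 68 were called higher and 24 lower, on day 3 it was 79 and 21, and on day 7 it was 73 and 6. Their median log2 difference was 0.20, 0.33 and 0.33 on days 1, 3 and 7, against 0.06, 0.08 and -0.01 over all tested genes. In percent, 46.6%, 54.1% and 50% were called higher, against the shares of 24.9%, 23.5% and 14.9% among all tested genes. Called lower were 16.4%, 14.4% and 4.11%, against 22.2%, 20.2% and 9.92%. These shares of all tested genes are also the background for the counts of each list below. After quantile normalisation 39 of the 146 were called higher on day 1 and 35 lower, against 2642 and 5975 of all 18419 tested genes.

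Genes that start filaments were called in both directions. In the Arp2/3 complex 4 of 6 tested genes rose on each day, and 1, 1 and 0 fell on days 1, 3 and 7. The gene that fell was Arpc5l, with log2 differences of -0.64 ± 0.20 on day 1 and -0.69 ± 0.20 on day 3 and limma adjusted p of 0.0194 and 0.0123. It was named after its values were seen. The day 1 call was lost without sham 2 or array 13, and the day 3 call with only those groups fitted. Actr3, a core subunit, rose by 1.85 ± 0.15, 1.95 ± 0.15 and 1.44 ± 0.15 on days 1, 3 and 7, with limma adjusted p of 9.31e-07, 6.83e-07 and 1.71e-05, and Arpc5 rose by 1.49 ± 0.14, 1.60 ± 0.14 and 1.28 ± 0.14. Among activators of the complex, 7, 7 and 8 of 15 rose and 3, 2 and 1 fell. Nckap1l, the blood cell subunit of the WAVE complex, had 6.41 ± 0.09 in sham, 9.54 ± 0.47 on day 1, 10.10 ± 0.13 on day 3 and 9.12 ± 0.57 on day 7 (SD, n = 4), and rose by 3.13 ± 0.26, 3.69 ± 0.26 and 2.71 ± 0.26 (SE). Cyfip2, another subunit of that complex, fell by 1.84 ± 0.40 on day 1 and 2.07 ± 0.40 on day 3, with adjusted p of 0.00243 and 0.000918. Hcls1, an Arp2/3 activator of blood cells, rose by 1.17 ± 0.14 on day 7.

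Formins, which build unbranched filaments, rose in 5, 7 and 6 of 11 and fell in 2, 2 and 0. Fmnl2 rose by 2.30 ± 0.23 on day 1, Diaph3 by 2.18 ± 0.25 on day 3 and 1.34 ± 0.25 on day 7, and Fhod3, the formin of heart muscle sarcomeres, fell by 1.78 ± 0.48 on days 1 and 3, with limma adjusted p of 0.00816 and 0.00755. Fmnl2 at 0.68 on day 7 was called at an adjusted p of 0.0438, and that call was lost in 12 of 25 alternatives, among them each of 11 arrays left out, with adjusted p up to 0.108. The 5 monomer binders split on days 1 and 3, with 2 higher and 2 lower on each. Cap1 rose by 1.68 ± 0.20, 2.02 ± 0.20 and 1.72 ± 0.20, and its muscle relative Cap2 fell by 1.31 ± 0.41 on day 1 and 1.21 ± 0.41 on day 3. The Cap2 call was lost without array 13 on day 1, at an adjusted p of 0.0632, and without sham 2 or sham 3 on day 3, at 0.0555 and 0.0549, or with only those 2 groups, at 0.068.

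Severing and capping genes were mixed. Of 16 severing genes 7, 8 and 6 rose and 2, 3 and 1 fell on days 1, 3 and 7. Cotl1, which binds actin beside cofilin, rose by 1.53 ± 0.10 on day 3 and 0.72 ± 0.10 on day 7. Wdr1, the helper of cofilin, rose by 1.33 ± 0.24 on day 1, a call lost after quantile normalisation, at an adjusted p of 0.111. Of 10 capping genes 3 rose on each day and 3, 3 and 1 fell. That is 30% higher on each day, against 24.9%, 23.5% and 14.9% of all tested genes. Called lower were 30%, 30% and 10%, against 22.2%, 20.2% and 9.92%. Capza1, a subunit of the common capping protein, rose by 1.62 ± 0.16, 1.91 ± 0.16 and 1.40 ± 0.16, and Tmod1, which caps filaments in the sarcomere, fell by 1.69 ± 0.32 on days 1 and 3, with limma adjusted p of 0.000807 and 0.000667. Tmod3 rose by 0.94 ± 0.13 on day 7. In the coronins 3, 4 and 3 of 6 rose and 1, 1 and 0 fell, and Coro6, a coronin of muscle, fell by 2.02 ± 0.47 on day 1 and 1.96 ± 0.47 on day 3.

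Bundling genes rose in 8, 11 and 11 of 16 on days 1, 3 and 7 and fell in 1, 0 and 0. Flnc, the filamin of muscle, had 9.42 ± 0.32 in sham, 13.51 ± 1.07 on day 1 (SD, n = 4) and rose by 4.09 ± 0.45 (SE), with a limma adjusted p of 1.21e-05. Actn1, the alpha-actinin of cells outside muscle, rose by 3.10 ± 0.25, 3.27 ± 0.25 and 2.48 ± 0.25. Flna rose by 2.97 ± 0.21 on day 3, and Tagln, an early smooth muscle protein, by 2.52 ± 0.49 on day 7. Among adhesion and membrane linkers 9, 11 and 8 of 17 rose and 2, 1 and 1 fell. Msn, moesin, rose by 3.36 ± 0.26, 2.96 ± 0.26 and 1.77 ± 0.26. Enah rose by 2.07 ± 0.22 on day 1, Tln1 by 1.65 ± 0.14 on day 3 and Marcks by 1.58 ± 0.22 on day 7.

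Motor genes followed. Unconventional myosins rose in 5, 8 and 7 of 12 and fell in 1, 2 and 0, and Myo5a, a cargo motor, rose by 1.32 ± 0.20, 1.90 ± 0.20 and 1.81 ± 0.20. Myo9b rose by 1.10 ± 0.11 on day 1 and 1.28 ± 0.11 on day 3, and Myo1d by 1.52 ± 0.18 on day 7. Of 7 non-muscle myosin II genes 2, 1 and 3 rose and 1, 1 and 0 fell. That is 28.6%, 14.3% and 42.9% higher, against 24.9%, 23.5% and 14.9% of all tested genes. Called lower were 14.3%, 14.3% and 0%, against 22.2%, 20.2% and 9.92%. Myh14 fell by 0.58 ± 0.15 on day 1 and 0.64 ± 0.15 on day 3, and Myh10 rose by 0.44 ± 0.12 on day 3 and 1.08 ± 0.12 on day 7. The day 3 call of Myh10 was lost after quantile normalisation, at an adjusted p of 0.19, and with median centring, at 0.159. Ppp1r12a rose by 0.69 ± 0.13 on day 1, and after quantile normalisation that difference was not called, at an adjusted p of 0.836. Myl9 rose by 3.05 ± 1.00 on day 7 at a limma adjusted p of 0.0387, a call lost in 10 of 25 alternatives, with values up to 0.089.

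Tropomyosins rose in 2 of 4 on each day, and these were Tpm4, by 2.07 ± 0.22, 2.45 ± 0.22 and 1.97 ± 0.22, and Tpm3, by 1.18 ± 0.11, 1.18 ± 0.11 and 0.75 ± 0.11.

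The MRTF-SRF axis, which senses the pool of single actin molecules and switches on actin genes, had 5 tested genes. Of these, 1 was called higher on each day and 3, 2 and 1 lower. That is 20% higher on each day, against 24.9%, 23.5% and 14.9% of all tested genes. Called lower were 60%, 40% and 20%, against 22.2%, 20.2% and 9.92%. Fhl2, a heart muscle cofactor, fell by 2.16 ± 0.55 on day 1 and 2.02 ± 0.55 on day 3, with limma adjusted p of 0.00616 and 0.00845. Myocd, the muscle coactivator myocardin, fell by 0.65 ± 0.25, 1.09 ± 0.25 and 0.97 ± 0.25 on days 1, 3 and 7. Its day 1 call, at 0.0452, was lost in 13 of 25 alternatives, with values up to 0.147, and its day 7 call with median centring, at 0.0625. Mrtfa, the sensor itself, rose by 0.22 ± 0.06 on day 7 at an adjusted p of 0.0197, which was lost under both scalings, at 0.089 and 0.0621, and without sham 4 or array 71, 72 or 74. Its means were 4.69 in sham and 4.91 on day 7, and the arrays of these groups overlapped. Negative control medians were 4.47 to 4.53 in sham and 4.44 to 4.59 on day 7, so Mrtfa is close to background.

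**Figure D4:**
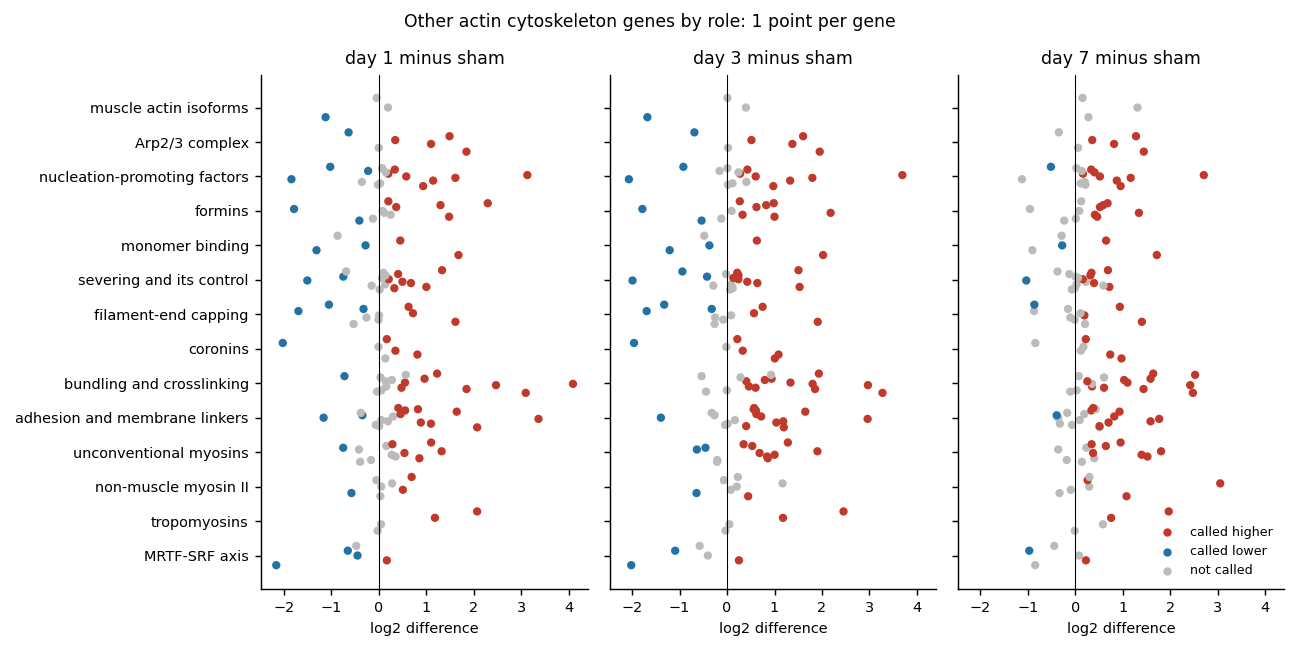
Log2 difference from sham (horizontal axis) of 133 other actin cytoskeleton genes on days 1, 3 and 7, 1 point per gene, in rows by role, coloured by call (red higher, blue lower, grey not called). Blue points number 23 and 21 on days 1 and 3 and 6 on day 7, and Flnc is the rightmost point of day 1, at 4.09.

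Actb is often used as a reference gene for scaling other measurements, so 12 other such genes with a row of their own were read beside it. They were called higher in 6 of 12 on day 1, 7 on day 3 and 7 on day 7. That is 50%, 58.3% and 58.3%, against 24.9%, 23.5% and 14.9% of all tested genes. The 12 include Gapdh, which cannot show a difference. Of the 12, 1, Sdha, was called lower on day 3, when array 31 was at 12.67 and the others at 14.27 to 14.40. These genes are given as deposited only. The Actb differences were smaller after quantile normalisation, at 1.23, 1.12 and 1.11. Hprt differed from sham by 0.27 ± 0.18, 0.04 ± 0.18 and -0.00 ± 0.18 on days 1, 3 and 7 and Tbp by -0.06 ± 0.08, -0.14 ± 0.08 and -0.12 ± 0.08 (SE, n = 4 per group), and neither was called on any day. For Hprt the limma adjusted p was 0.214, 0.864 and 0.994, and for Tbp it was 0.585, 0.189 and 0.345. Gapdh lay on a plateau, with the value 19.35 on 11 of 16 arrays, so no difference can be read from it. Ppia and Rpl13a have no row of their own. Tubb5, a tubulin, rose by 1.66 ± 0.22, 2.88 ± 0.22 and 1.77 ± 0.22, against 1.98, 1.99 and 1.34 for Actb. Eef1a1 repeated the value 17.27 on 5 arrays, including every day 7 array. Its highest value was 17.36, so 17.27 is not an upper limit, and why it repeats was not tested. B2m reached 19.85, near the ceiling, so its differences may be cut short.

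**Figure D5:**
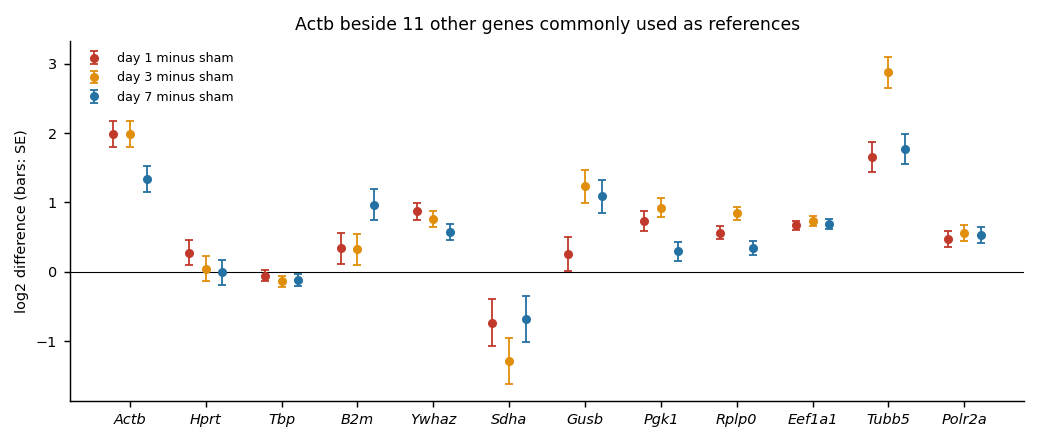
Log2 difference from sham (vertical axis, bars are the SE of the fit) on days 1, 3 and 7 for Actb and 11 other genes used as references, leaving out Gapdh, which lies on a plateau. Actb stands at 1.98, 1.99 and 1.34, Tubb5 at 1.66, 2.88 and 1.77, and Hprt at 0.27, 0.04 and -0.00.

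Over the 16 arrays the genes most like Actb, among 12281 tested genes with ordinary symbols, were Actn1 at a Pearson r of 0.984, Fcgr2b, an antibody receptor, at 0.983, Itgb2, the common chain of leukocyte integrins, at 0.982, Slc41a2 at 0.981 and Tpm3 at 0.981. For Coro1a they were Ncf4, of the phagocyte oxidase, at 0.981, Itgam, an integrin of myeloid cells, at 0.978, Il4ra at 0.976, Tgfbi at 0.974 and Fgr, a myeloid kinase, at 0.974. The arrays share the 4 group means, and over deviations from the group means r was 0.75 to 0.87 for the 5 genes named with Actb and 0.74 to 0.87 for those named with Coro1a. Of each set of 5, 1 was among the top 5 by Spearman's rank correlation and 0 after quantile normalisation, so the ranks are not stable.

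Within the 8 genes, r with Actb over 16 arrays was 0.978 for Lcp1, 0.954 for Capg, 0.927 for Cfl1, 0.915 for Coro1a, 0.907 for Pfn1, 0.897 for Myo1f and 0.575 for Tmsb10. Over deviations from the group means these were 0.72, 0.83, 0.57, 0.58, 0.71, 0.62 and 0.51. Cfl1 and Pfn1 had deviations that hardly followed those of Coro1a, with r of 0.11 and 0.19, while Lcp1 and Capg had 0.80 and 0.78. These are descriptions over arrays that share groups and scaling.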

How the data were processed

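The deposited table holds log2 signals of 72688 rows on 16 arrays, and the authors' processing notes name Affymetrix Expression Console with no version. The background correction, summarisation, scaling and genome build are not named by the notes, labels or headers, so log2 differences were not turned into folds. The labels name a 3' mouse array, but row names are those of transcript clusters, so the array design is uncertain. Rows were named from the platform's annotation, with 30604 rows carrying 1 symbol and 813 updated through RefSeq. Genes entered the tests if 4 or more of their 16 values exceeded the array's median over all rows (4.17 to 4.61), which left 18419. With limma 3.58.1 (R 4.3.3; lmFit, eBayes with trend), group means were estimated jointly over the 16 arrays, and the Benjamini-Hochberg adjustment covered all tested genes, comparison by comparison. The script was tested on simulated data. The members and lists were chosen with earlier results of these data known. For each list and day the 2 called genes of largest difference were named, passing over genes with a mean above 19, as were closest relatives and the 5 genes of highest r. Alternatives changed scaling, filter, row choice, variance model, weights and the arrays used. The number of arrays limits the precision. One pathway list counts in the totals and is not reported here.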

Additional observations from a re-analysis of the deposited data

Results flagged for a closer look

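In groups of 4 arrays, 26 of 168 gene or marker groups had 1 array farther from the other 3 than Dixon's critical value allows, where chance gives about 1 in 20. None was one of the 8 genes measured. Day 3 array 31 gave these: Acta2 at 11.43 (others 14.14 to 14.65), Cfl2 at 11.03, Coro1b at 6.98 (others 7.64 to 7.68), Gapdh at 19.21, Sdha at 12.67 (others 14.27 to 14.40), Gusb at 6.39 and Tubb5 at 12.87, and the neutrophil score at 6.89, the macrophage score at 1.44, the fibroblast score at 1.16 and the cardiomyocyte score at -3.69. Day 1 array 13 gave Gsn at 10.11 (others 10.93 to 11.05), Gapdh at 19.23, Eef1a1 at 17.18, a leukocyte score of 3.53 and a neutrophil score of 7.73. Day 1 array 14 gave Tmsb4x at 10.96. Day 7 array 73 gave Coro1c at 6.84 (others 7.32 to 7.42), Arpc1a at 8.14 and Ywhaz at 10.81, and array 74 gave Cfl2 at 10.82, Tmsb4x at 11.40 and a neutrophil score of 0.49. Sham array 1 gave Acta1 at 14.82 (others 13.75 to 13.91) and Gusb at 6.06, and sham array 3 gave Gapdh at 19.34, a step within its plateau.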

How the results depend on the processing

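Of 1200 differences of the 8 genes recomputed over 25 alternatives and 6 comparisons, 1177 moved by less than the spread between replicates, 23 moved more and no called difference changed sign. Quantile normalisation shifted the median of all genes on day 1 to -0.15 from 0.06, and the share of higher among all calls was 30.7% on day 1 and 35.8% on day 3, against 52.9% and 53.8% as deposited. That share was 58.3% for day 7 against day 3 and 73.8% for day 7 against day 1, against 32.1% and 51.8%. Median centring gave 78.6% for day 7 against sham, where the deposited values gave 60.0%, and 42.2% and 70.9% for day 7 against days 3 and 1.

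Under quantile normalisation the count of genes called higher on day 7 was 4 of 8, and lower on day 7 against day 1 it was 1. The pathway genes called higher on day 1 were 39. They were 6 higher and 4 lower for day 3 against day 1, 6 and 3 for day 7 against day 3, and 42 and 10 for day 7 against day 1. With median centring 1 pathway gene was lower on day 7 against sham, 5 higher and 3 lower for day 3 against day 1, 4 and 4 for day 7 against day 3, and 10 lower for day 7 against day 1, and 2 of the 8 genes were called lower for day 7 against day 3 and 2 for day 7 against day 1. Without a filter 6 pathway genes were higher for day 3 against day 1. Array weights gave 22 lower on day 7 against sham, 43 higher for day 3 against day 1, 23 higher and 40 lower for day 7 against day 3, and 49 higher for day 7 against day 1. Fits of only the 2 groups compared gave 18 lower on day 7 against sham, 3 higher and 1 lower for day 3 against day 1, 4 and 7 for day 7 against day 3, and 3 of the 8 genes lower there. Without arrays 31 and 13 there were 20 lower on day 7 against sham, 35 higher for day 3 against day 1, 37 lower for day 7 against day 3 and 39 higher for day 7 against day 1. The causes were not tested.

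Leaving out each array in turn gave 7 of the 8 genes higher on day 1, 8 on day 3 and 6 to 8 on day 7. It gave 1 to 3 higher for day 3 against day 1, 4 to 5 lower for day 7 against day 3, and 0 to 1 higher and 3 to 4 lower for day 7 against day 1. Pathway genes numbered 62 to 71 higher and 13 to 30 lower on day 1, 74 to 85 and 19 to 24 on day 3, and 61 to 81 and 5 to 16 on day 7. They numbered 5 to 31 and 3 to 10 for day 3 against day 1, 5 to 11 and 11 to 30 for day 7 against day 3, and 19 to 41 and 15 to 32 for day 7 against day 1. Of the 5 genes most like Actb 1 stayed by Spearman's rank correlation and 0 after quantile normalisation, and the same held for Coro1a. Of 86 differences of 43 pathway genes picked by the naming rule 73 kept their call in all 25 alternatives. Signal near the negative controls limits Coro1a and Myo1f in sham, and Mrtfa in sham and on day 7. No paired analysis was possible because the groups share no replicate numbers.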
